A study of Caenorhabditis elegans with 6 samples.

Results

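The genes described here are *daf-16* of the nematode *Caenorhabditis elegans* and 9 genes known to be activated by its product DAF-16, namely *sod-3*, *dod-3*, *dod-6*, *icl-1*, *hsp-12.3*, *hsp-12.6*, *sip-1*, *lea-1* and *scl-1*. They were chosen by gene name, and each name matched 1 row, so that all 10 were found among the 46778 genes of the deposited table. RNA was sequenced in 6 libraries, 3 from JM03 animals and 3 from control animals; JM03 is a derivative of crotamiton by the title of the series. The sources used here give no strain, stage, dose or exposure time. The labels do not say whether the 3 libraries of a group came from separate cultures, so the p-values reflect no more than the scatter among these samples, and that scatter may be technical. Levels are in TPM, a share of all transcripts that is scaled by transcript length, so that levels of different genes can be set side by side.

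DAF-16 is the FOXO transcription factor of the worm. When insulin-like signalling through the receptor DAF-2 is active, the kinases AGE-1, PDK-1, AKT-1 and AKT-2 keep DAF-16 phosphorylated and in the cytoplasm, bound by 14-3-3 proteins. When signalling is low, DAF-16 enters the nucleus and turns on genes of stress resistance, metabolism and long life, many of them in the intestine. Because this control acts on the protein, the level of *daf-16* RNA is not by itself a reading of DAF-16 activity.

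The library of control replicate 3 differed from all others. Across the 12912 tested genes, which are not independent replicates, its rank correlation (Spearman) with any other library reached 0.784 to 0.866, while pairs without it reached 0.901 to 0.978. Ribosomal RNA took 4.37% of its TPM, against 0.338% to 0.639% in the rest. Its deviation from the mean of the other controls had a median of -0.13 in log2(TPM + 1) for genes with transcripts under 1000 nt and of -1.53 for genes over 2000 nt. Over all tested genes the log2 fold change (JM03 over control) had a median of 0.35, which became 0.05 without control replicate 3 and 0.09 with quantile normalization. Read depth cannot be had from TPM and is unknown.

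*daf-16* RNA had nearly the same level in 5 of the 6 libraries, with control replicate 3 as the exception. The gene (WBGene00000912, chromosome I, 11 annotated transcripts) was at 71.73, 71.83 and 69.72 TPM in JM03, against 71.61, 78.46 and 20.28 TPM in control. The groups overlapped, and control replicates 1 and 2 were both within 10 TPM of every JM03 library. Its log2 fold change was 0.54 ± 0.529 (SE, n = 3 each; limma, Benjamini-Hochberg adjusted p = 0.541), with a 95% interval of -0.72 to 1.79. Without control replicate 3 the value turned to -0.08, with an interval of -0.25 to 0.10 (limma adjusted p = 0.537). The longest *daf-16* transcript has 2765 nt, and control replicate 3 minus the mean of the other controls was -1.84 in log2(TPM + 1), where genes over 2000 nt had a median of -1.53.

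**Figure D1:**
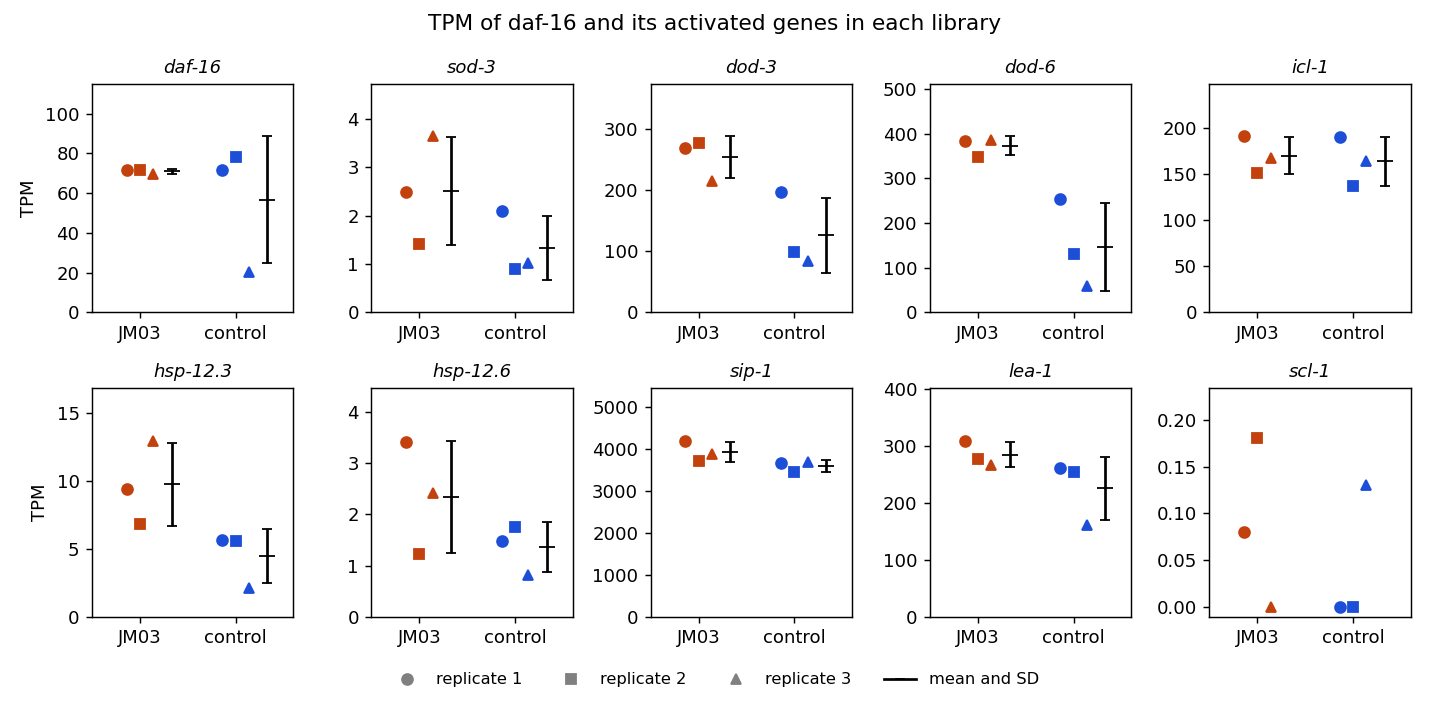
TPM of the 10 genes in each library, with JM03 at the left and control at the right of each panel. Each point is 1 library, its shape gives the replicate number, and the bar gives the mean and SD (none for *scl-1*, which includes libraries at 0). The *dod-6* libraries sit at 349 to 387 TPM in JM03, all above the controls at 58.1 to 253 TPM, while the *daf-16* libraries lie between 69.7 and 78.5 TPM except for control replicate 3 at 20.3 TPM.

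*dod-6* and *dod-3*, which the table describes only as genes downstream of DAF-16, had the 2 largest log2 fold changes among the 9 tested genes on the log2(TPM + 1) scale with the 6 libraries. With a pseudocount of 0.1, or without JM03 replicate 2 or control replicate 2, *hsp-12.3* exceeded *dod-3*. *dod-6* (WBGene00011869, III:10197716 to 10198352 in WBcel235) was at 383.36, 348.83 and 387.10 TPM in JM03, against 253.28, 130.18 and 58.08 TPM in control. Every JM03 library was above every control, and the JM03 libraries were close together (coefficient of variation 5.65%) while the controls were spread widely (67.1%). The log2 fold change of *dod-6* was 1.58 ± 0.504 (SE, n = 3 each; 95% interval 0.38 to 2.77; limma adjusted p = 0.315), and 1.03 ± 0.281 without control replicate 3 (limma adjusted p = 0.233).

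*dod-3* (WBGene00016052, V:2730622 to 2731098) was at 268.88, 276.53 and 214.49 TPM in JM03, against 195.88, 98.41 and 83.17 TPM in control. Its groups did not overlap either, though the lowest JM03 library lay only a little above control replicate 1. Its log2 fold change was 1.10 ± 0.359 (SE, n = 3 each; 95% interval 0.24 to 1.95; limma adjusted p = 0.322), and 0.85 ± 0.306 without control replicate 3 (limma adjusted p = 0.238). Both genes have short transcripts (581 and 420 nt), of the class in which control replicate 3 deviated little overall. Yet *dod-6* and *dod-3* were at -1.63 and -0.73 log2 units there relative to the mean of the other controls.

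Neither gene passed the test over all genes, with one exception among the settings tried. Weighting the libraries by their fitted quality (array quality weights), which gave control replicate 3 a weight of 0.0304 against 0.846 to 6.46 for the others, called both genes. The log2 fold changes there were 1.28 for *dod-6* and 1.12 for *dod-3* (limma adjusted p = 0.0235 and 0.0256). They were 2 of the 9 tested genes described here, where this setting called 17.1% of all tested genes in either direction and 6.62% as higher in JM03. With equal weights these shares were 0.132% and 0.0929%.

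Intestinal marker genes are given beside these genes, since many DAF-16 targets are active in the intestine. The 11 measured intestine markers, none of them at 0, summed to 2736, 2360 and 1952 TPM in JM03, against 2287, 1580 and 1271 TPM in control. A log2 fold change above 0 was found for 10 of them, against 72.7% of all tested genes. The marker sums of the groups overlapped, and among the controls their order was that of *dod-6* and *dod-3*. As a share of that sum, *dod-6* stood at 14.01%, 14.8% and 19.8% in JM03, against 11.1%, 8.24% and 4.57% in control. *dod-3* stood at 9.83%, 11.7% and 10.99% in JM03, against 8.57%, 6.23% and 6.54% in control. Relative to this sum, then, the JM03 libraries were also above the controls for both genes. Most of the sum was *asp-1*, at 1378 to 1950 TPM in JM03 and 733 to 1559 TPM in control, so it says little of the other markers. Single markers had log2 fold changes from -0.29 (*mtl-2*) to 1.23 (*vha-6*), beside 1.58 for *dod-6* and 1.10 for *dod-3*. The part of intestinal RNA in the difference was not tested further. In libraries made from many cells, fewer cells of a type and less RNA per cell cannot be told apart.

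The superoxide dismutase gene *sod-3*, which encodes a manganese enzyme of mitochondria and is a widely used reporter of DAF-16 activity, was near the lower limit of the table. The gene (WBGene00004932, X:17092753 to 17094306) was at 2.49, 1.41 and 3.64 TPM in JM03, against 2.1, 0.90 and 1.02 TPM in control. The groups overlapped, since JM03 replicate 2 was below control replicate 1. The log2 fold change was 0.57 ± 0.333 (SE, n = 3 each; 95% interval -0.22 to 1.36; limma adjusted p = 0.490), and 0.35 without JM03 replicate 3. On the opposite strand *sod-3* overlaps C08A9.6, which was at 4.03, 4.52 and 6.63 TPM in JM03 and at 3.68, 2.64 and 1.31 TPM in control. Whether reads were counted by strand is not stated, and without it reads of the pair cannot be told apart.

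The other superoxide dismutases were mostly far more abundant than *sod-3*. The cytosolic copper-zinc enzyme gene *sod-1* was at 346.27, 321.86 and 346.77 TPM in JM03, against 250.47, 229.11 and 209.49 TPM in control, with no overlap (log2 fold change 0.56 ± 0.194 SE, limma adjusted p = 0.345). *sod-2*, which encodes the other mitochondrial manganese enzyme, averaged 154 TPM in JM03 and 131 TPM in control. Of the 5 genes, 4 were tested, none was called, and their median log2 fold change was 0.49, against 0.35 for all tested genes. *sod-2* is named here beyond the rule for named genes.

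*icl-1* encodes the bifunctional enzyme of the glyoxylate cycle, which lets the worm make sugar from fat. The gene (WBGene00001564, V:724332 to 728004) was at 190.85, 151.41 and 167.52 TPM in JM03, against 190.02, 137.46 and 163.72 TPM in control. The groups lay over each other, with a log2 fold change of 0.06 ± 0.238 (SE, n = 3 each; limma adjusted p = 0.875) and a 95% interval of -0.50 to 0.62. The sign turned with quantile normalization (-0.10, limma adjusted p = 0.802), and also without JM03 replicate 1 or control replicate 2. Its longest transcript has 3120 nt, but control replicate 3 differed from the mean of the other controls by only 0.02 log2 units. Among 21 genes of the citric acid cycle, gluconeogenesis and *icl-1*, 20 values were above 0, against 72.7% of all tested genes. When control replicate 3 was left out there were 15, against 56.5%. None of the 21 was called. The 2 of smallest p were *idhb-1*, a subunit of isocitrate dehydrogenase, and the aconitase gene *aco-1* (0.95 and 1.07 in log2, limma adjusted p = 0.464 and 0.478, and 0.51 and 0.48 in log2 without control replicate 3).

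The small heat shock proteins HSP-12.3 and HSP-12.6 belong to the alpha-crystallin family of chaperones. Their genes lie side by side on the minus strand of chromosome IV, with 721 bases between them (*hsp-12.3*, WBGene00002012, IV:9444791 to 9445507; *hsp-12.6*, WBGene00002013, IV:9446229 to 9447228). *hsp-12.3* was at 9.4, 6.83 and 12.94 TPM in JM03, against 5.61, 5.58 and 2.13 TPM in control. The groups did not overlap, and the gap between JM03 replicate 2 and control replicate 1 was small beside the spread within JM03. Its log2 fold change was 1.02 ± 0.411 (SE, n = 3 each; 95% interval 0.04 to 2.00; limma adjusted p = 0.406), and 0.66 without control replicate 3 (limma adjusted p = 0.266).

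*hsp-12.6* was the lower of the neighbours, at 3.41, 1.22 and 2.42 TPM in JM03, against 1.49, 1.76 and 0.81 TPM in control. Its groups overlapped, since JM03 replicate 2 was below control replicates 1 and 2. The log2 fold change was 0.48 ± 0.326 (SE, n = 3 each; 95% interval -0.30 to 1.25; limma adjusted p = 0.490). At such levels the added 1 TPM shrinks a fold change, and with 0.1 TPM added in its place *hsp-12.6* and *sod-3* had 0.71 and 0.86.

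*sip-1*, known as a small heat shock protein gene of oocytes and embryos, was by far the most abundant of the 10 genes. The gene (WBGene00004798, III:10506106 to 10506801) was at 4193.52, 3710.92 and 3864.64 TPM in JM03, against 3660.94, 3435.06 and 3686.58 TPM in control. JM03 replicate 2 was just above the highest control, and the difference was small, with a log2 fold change of 0.13 ± 0.122 (SE, n = 3 each; limma adjusted p = 0.537) and a 95% interval of -0.16 to 0.41. *sip-1* ranked 26th in JM03 and 46th in control by mean TPM over the table, and it made up 76.6% to 77.5% of the summed TPM of the 10 genes in JM03, against 78.9% to 88.2% in control.

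Against 72.7% of all tested genes, all 14 oocyte markers set beside *sip-1*, none at 0, had a positive log2 fold change. They summed to 9602, 8011 and 9466 TPM in JM03, against 7766, 6041 and 3312 TPM in control. As a share of that sum *sip-1* stood at 43.7%, 46.3% and 40.8% in JM03, against 47.1%, 56.9% and 111% in control. The JM03 libraries were below the controls on this scale, but JM03 replicate 2 only just below control replicate 1. The 111% is that of control replicate 3, where the marker sum was lowest. *sip-1*, with a transcript of 640 nt, differed there from the mean of the other controls by only 0.06 log2 units. The part of oocyte RNA in the levels of *sip-1* was not tested further. An annotated non-coding RNA on the opposite strand of *sip-1*, F43D9.8, was at 21.42 to 39.35 TPM in JM03 and at 0 to 93.86 TPM in control.

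Of 16 small heat shock protein genes, these 3 included, 14 were tested and none was called. Their median log2 fold change of 0.35 was that of all tested genes. Of the 14, 9 were positive (7 without control replicate 3), against 72.7% of all tested genes (56.5%). *hsp-43* had a log2 fold change of 1.42 and *hsp-12.3* one of 1.02, the genes of smallest p in the list (limma adjusted p = 0.473 and 0.406), and without control replicate 3 they had 0.57 and 0.66. The heat-inducible *hsp-16.2*, *hsp-16.41*, *hsp-16.48* and *hsp-16.49* had negative values of -0.22 to -0.42, and F08H9.4 had -0.60. The inducible *hsp-16.11* had a positive value of 0.53, but -0.20 without control replicate 3. In that library it was at 32.56 TPM and its near-identical copy *hsp-16.1* at 172.76 TPM. The sum of the pair was 117.5 to 153.0 TPM in JM03 and 138.2 to 205.3 TPM in control. The negative values came to -0.04 for *hsp-16.2*, -0.08 for *hsp-16.48* and *hsp-16.49*, -0.25 for *hsp-16.41* and -0.35 for F08H9.4 without that library. With array quality weights *hsp-16.2* turned to 0.02. They were named after their values were seen, and *hsp-16.48* and *hsp-16.49* carry the same TPM in every library, so they are not separate measurements.

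*lea-1* encodes a late embryogenesis abundant protein, a family known from plant seeds that is tied to survival of drying. The gene (WBGene00002263, V:10011923 to 10028168, 17 annotated transcripts) was at 309.51, 277.63 and 266.71 TPM in JM03, against 261.04, 254.85 and 161.78 TPM in control. The groups did not overlap, but the lowest JM03 library was within 6 TPM of the highest control. The log2 fold change was 0.36 ± 0.256 (SE, n = 3 each; 95% interval -0.25 to 0.97; limma adjusted p = 0.490), close to the median of all genes, and 0.14 without control replicate 3. *lea-1* overlaps *acl-2* on the opposite strand, at 46.21 to 49.94 TPM in JM03 and 11.21 to 42.03 TPM in control.

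Among 11 genes of desiccation tolerance and trehalose synthesis or breakdown, *lea-1* included, 10 were tested and none was called. All 10 values were above 0 (8 when control replicate 3 was left out), against 72.7% of all tested genes (56.5%). The trehalase genes *tre-5* and *tre-4* had the smallest p. *tre-5* averaged 5.16 TPM in JM03 and 2.11 TPM in control, and *tre-4* 1.68 TPM in JM03 and 0.833 TPM in control (1.17 and 0.56 in log2, limma adjusted p = 0.421 and 0.399, and 0.64 and 0.43 in log2 without control replicate 3).

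*scl-1* encodes a secreted protein of the SCP-like family and is known for a part in the long life of insulin-signalling mutants. The gene (WBGene00004742, IV:13056326 to 13057351) was at 0.08, 0.18 and 0 TPM in JM03, against 0, 0 and 0.13 TPM in control. It was below 1 TPM in every library and was the 1 gene of the 10 that was not tested. Of the 26 *scl* genes in the table, 14 were tested and none was called. *scl-20* was at 11.14, 9.53 and 6.73 TPM in JM03, against 2.97, 0.64 and 1.72 TPM in control (1.93 ± 0.395 SE in log2 fold change, limma adjusted p = 0.306). *scl-12* was at 1.13 to 1.91 TPM in JM03 and at 0.27 to 0.35 TPM in control (0.88 in log2 fold change, limma adjusted p = 0.306). Of the 14 values 9 were positive and 5 negative, where 72.7% of all tested genes were positive. Without control replicate 3, 8 were positive, against 56.5%.

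**Figure D2:**
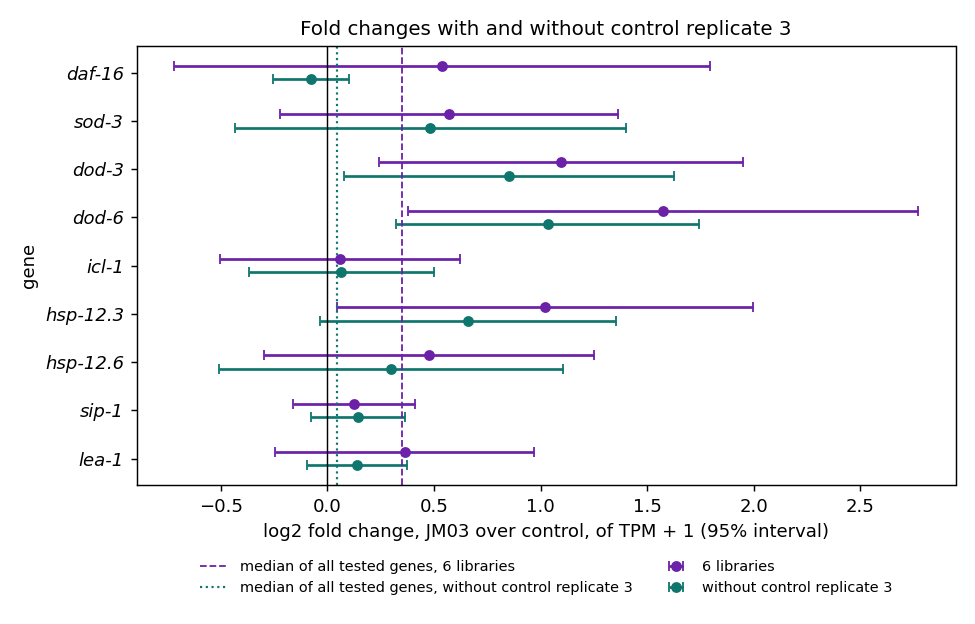
Log2 fold change of JM03 over control on the log2(TPM + 1) scale for the 9 tested genes, with 95% intervals from limma, using the 6 libraries and without control replicate 3. Vertical lines mark 0 and the median of all tested genes in each fit. The interval of *daf-16* is -0.25 to 0.10 when that library is left out, against -0.72 to 1.79 with it, while those of *dod-3* and *dod-6* stay above 0.

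Set beside each other, none of the 9 tested genes was called at an adjusted p of 0.05 (limma; adjusted p = 0.315 to 0.875), where 0.132% of all tested genes were called. At an unadjusted p below 0.05 there were 3 of 9, *dod-6*, *dod-3* and *hsp-12.3*, all higher in JM03, against 4.21% of all tested genes in that direction and 11.7% in either direction. Without control replicate 3 there were 2, *dod-6* and *dod-3*, against 8.41%. Every JM03 library lay above every control for 5 of 9, namely those 3, *sip-1* and *lea-1*, where 21.9% of all tested genes did so. The same number did so against control replicates 1 and 2 alone (23.7% of all tested genes), and none of the 9 had every JM03 library below every control (9.41%). Each of the 5 genes with separate groups had a two-sided exact permutation p of 0.1, the smallest that 3 libraries against 3 allow. Control replicate 3 was the lowest library for 6 of the 9, and for 64.7% of all tested genes.

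All 9 log2 fold changes were positive, as were 72.7% of those of all tested genes. Without control replicate 3, 8 of 9 were positive, *daf-16* being the exception, against 56.5%. The median over the 9 genes was 0.54, which is 0.19 above that of all tested genes, and 0.30 without control replicate 3, which is 0.25 above. In the fit without that library *daf-16*, *icl-1*, *lea-1* and *sip-1* had -0.08 to 0.14 and *dod-6* had 1.03. The genes thus did not share a common size of difference. This is a description of 10 genes picked by name, and no test over the group was made.

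**Figure D3:**
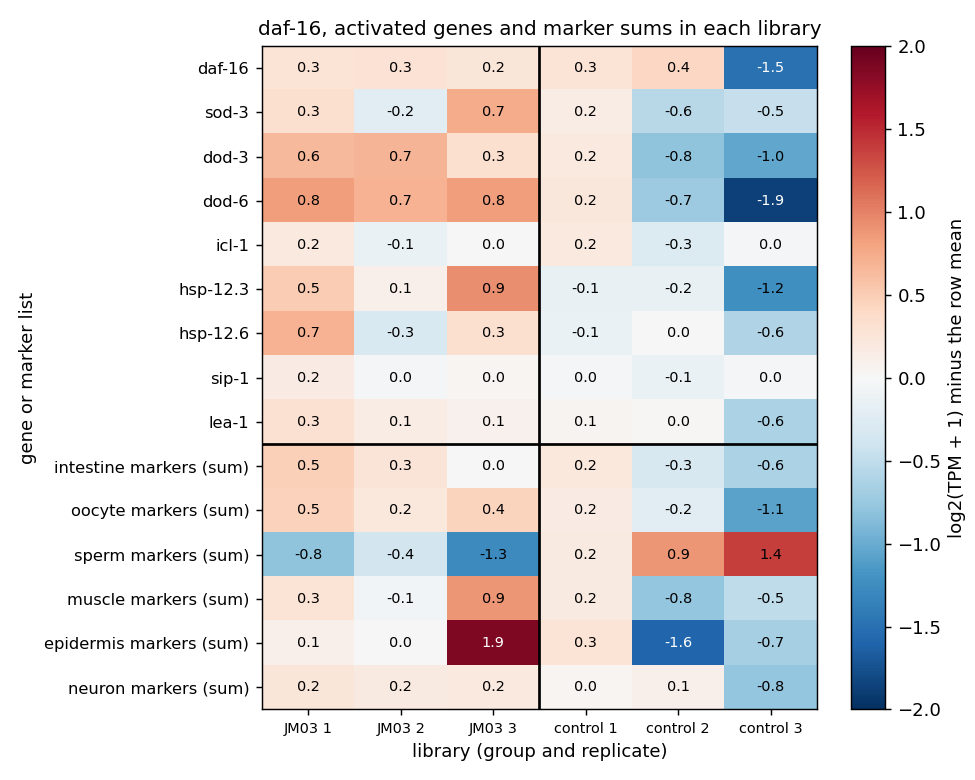
Deviation of each of the 9 tested genes, and of the summed TPM of 6 marker lists, from its own mean over the 6 libraries, in log2(TPM + 1), with JM03 libraries at the left and controls at the right. *dod-6*, *dod-3* and the intestine and oocyte sums are all highest in control replicate 1 and lowest in control replicate 3 among the controls, while the sperm marker sum, 592 to 1112 TPM in JM03 and 1625 to 3753 TPM in control, runs the other way.

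Marker sums of other tissues also differed between the libraries. All 13 sperm markers had a negative log2 fold change and 11 of them had every JM03 library below every control, against 9.41% of all tested genes. Muscle markers summed to 714 to 1364 TPM in JM03 and 432 to 844 TPM in control, epidermis markers to 37.3 to 140.0 TPM in JM03 and 11.9 to 45.4 TPM in control, and neuron markers to 439 to 460.3 TPM in JM03 and 227 to 417 TPM in control. None of the markers was called with equal weights, while array quality weights called 12 of the 13 sperm, 7 of the 14 oocyte and 3 of the 11 intestine markers, beside 17.1% of all tested genes. The part of the tissue makeup in the differences above was not tested.

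By level the 10 genes differed in order between the groups mainly in the place of *dod-6* and *dod-3*. In JM03 the order was *sip-1*, *dod-6*, *lea-1*, *dod-3*, *icl-1*, *daf-16*, *hsp-12.3*, *sod-3*, *hsp-12.6* and *scl-1*. In that group the libraries of neighbours overlapped only between *lea-1* and *dod-3* and between *sod-3* and *hsp-12.6*. In control *lea-1* and *icl-1* stood above *dod-6* and *dod-3*, and the libraries of these 4 neighbours overlapped from each to the next. By mean TPM over the table, *dod-6* ranked 336th in JM03 and 873rd in control, and *dod-3* ranked 505th and 1052nd in the same groups.

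Across the libraries the largest change of *daf-16* was the dip in control replicate 3. The 3 genes of closest pattern were *bli-4*, *ztf-7* and *fre-1*, with a Pearson's r of 1.00 with *daf-16* over the 6 libraries. *bli-4* was at 111.02, 109.77 and 106.99 TPM in JM03, against 111.19, 123.22 and 22.80 TPM in control. Such likeness was common, with an r of at least 0.9 in 41.5% of all tested genes. With control replicate 3 left out, r was 0.994 for *bli-4* and 0.986 for both *ztf-7* and *fre-1*. These 3 genes were picked for the highest r over the 6 libraries. A high r over the remaining libraries follows from that choice and is no separate evidence of likeness. For *dod-6* r went from 0.80 to -0.93 when control replicate 3 was left out, and for *dod-3* from 0.64 to -0.86. This was not particular to them, since the other tested genes described here were then negative too, from -0.22 (*hsp-12.6*) to -0.86 (*sod-3*). In those libraries *daf-16* ranged only from 69.72 to 78.46 TPM, with control replicate 2 the highest, so r there rests largely on that library. All these values are descriptions, and TPM values of a library share 1 total.

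**Figure D4:**
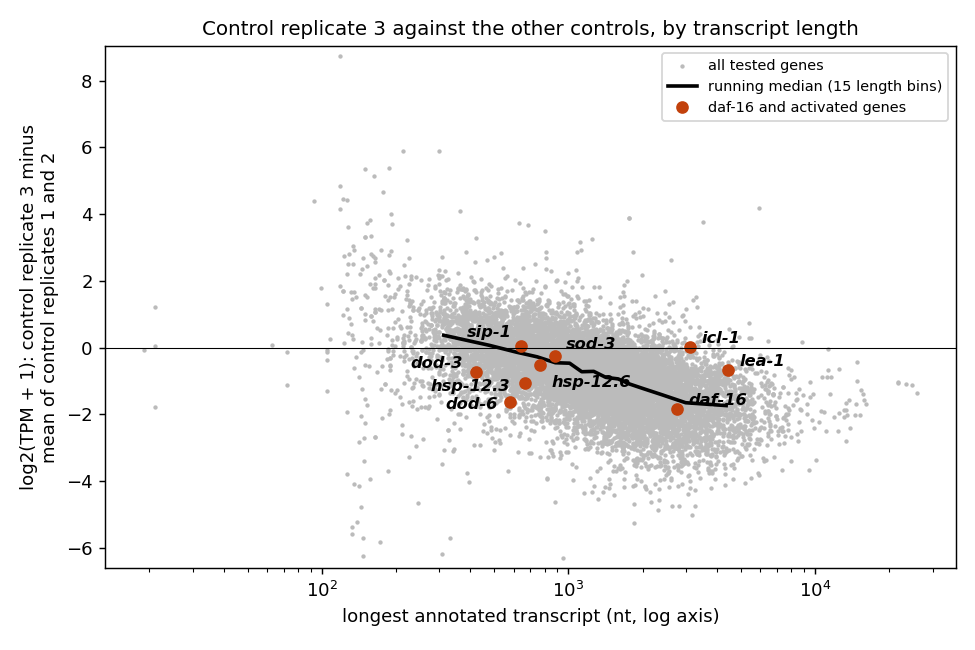
For each tested gene, log2(TPM + 1) in control replicate 3 minus the mean of control replicates 1 and 2, against the length of its longest annotated transcript in nt on a log axis. The line is the running median over 15 length bins. *daf-16* at -1.84 lies near the line for its length, *icl-1* at 0.02 and *lea-1* at -0.67 lie above it, and *dod-6* at -1.63 and *hsp-12.3* at -1.08 lie below it.

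The genes that act upstream of DAF-16 stood lowest in control replicate 3, as did 64.7% of all tested genes. All 10 genes of the insulin receptor cascade were tested and none was called. They summed to 464, 457 and 493 TPM in JM03, against 431, 414 and 75.1 TPM in control. Their median log2 fold change was 0.70, against 0.35 for all tested genes. When control replicate 3 was left out it was 0.06, against 0.05. The receptor gene *daf-2* was at 28.76, 31.89 and 41.08 TPM in JM03, against 25.10, 29.14 and 1.21 TPM in control (1.52 in log2 fold change, limma adjusted p = 0.490, and 0.30 without control replicate 3).

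Of 18 partners and regulators of DAF-16, 17 were tested and none was called. Their median log2 fold change was 0.74, or 0.12 without control replicate 3, against 0.35 and 0.05 for all tested genes. The 14-3-3 gene *ftt-2*, whose product holds DAF-16 in the cytoplasm, was at 258.10, 217.49 and 257.72 TPM in JM03, against 210.43, 167.08 and 84.03 TPM in control (0.76 in log2 fold change, limma adjusted p = 0.465, and 0.38 without control replicate 3). *cst-1*, a kinase known to promote DAF-16 activity, was at 9.92 to 16.79 TPM in JM03 and at 4 to 9.21 TPM in control (0.72, limma adjusted p = 0.482, and 0.40 without control replicate 3).

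Other genes known as activated by DAF-16 were mostly higher in JM03, as were most tested genes, and none passed the test with equal weights. Of 26 listed, 23 were tested and none was called. Values were above 0 for 19 (17 when control replicate 3 was left out), against 72.7% of all tested genes (56.5%). Every JM03 library was above every control for 12, where 21.9% of all tested genes did so. At an unadjusted p below 0.05 there were 8, all higher in JM03, against 4.21% of all tested genes. The median was 0.62, and 0.48 when control replicate 3 was left out, against 0.35 and 0.05 for all tested genes. The metallothionein gene *mtl-1* was at 457.77, 405.28 and 419.03 TPM in JM03, against 169.58, 92.01 and 134.70 TPM in control (1.73 in log2 fold change, limma adjusted p = 0.160). With array quality weights 11 of the 23 were called, *mtl-1* among them (limma adjusted p = 0.00384), beside 17.1% of all tested genes. The long non-coding RNA *tts-1*, known from insulin receptor mutants, was at 4898.33, 5315.37 and 4354.54 TPM in JM03, against 3891.50, 3111.96 and 2561.81 TPM in control (0.62, limma adjusted p = 0.306).

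By sign, genes known as repressed by DAF-16 were not set apart from those known as activated. Of 15 listed, 11 were tested and none was called with equal weights. Values were above 0 for 10 (8 when control replicate 3 was left out), against 72.7% of all tested genes (56.5%). The median was 0.66, or 0.62 without that library, against 0.35 and 0.05 for all tested genes. Every JM03 library was above every control for 2 (21.9% of all tested genes) and below for 1 (9.41%). At an unadjusted p below 0.05 (limma) there were 3 higher and 1 lower, against 11.7% of all tested genes in either direction. Array quality weights called 4 of the 11, beside 17.1% of all tested genes. *dod-19* was at 292.39, 289.23 and 234.53 TPM in JM03, against 204.75, 108.47 and 114.42 TPM in control (0.98 in log2 fold change, limma adjusted p = 0.307). The insulin-like peptide gene *ins-7* had the 1 negative value, at 45.01, 69.42 and 33.63 TPM in JM03, against 101.34, 108.47 and 194.86 TPM in control (-1.43, limma adjusted p = 0.306). Its groups did not overlap.

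**Figure D5:**
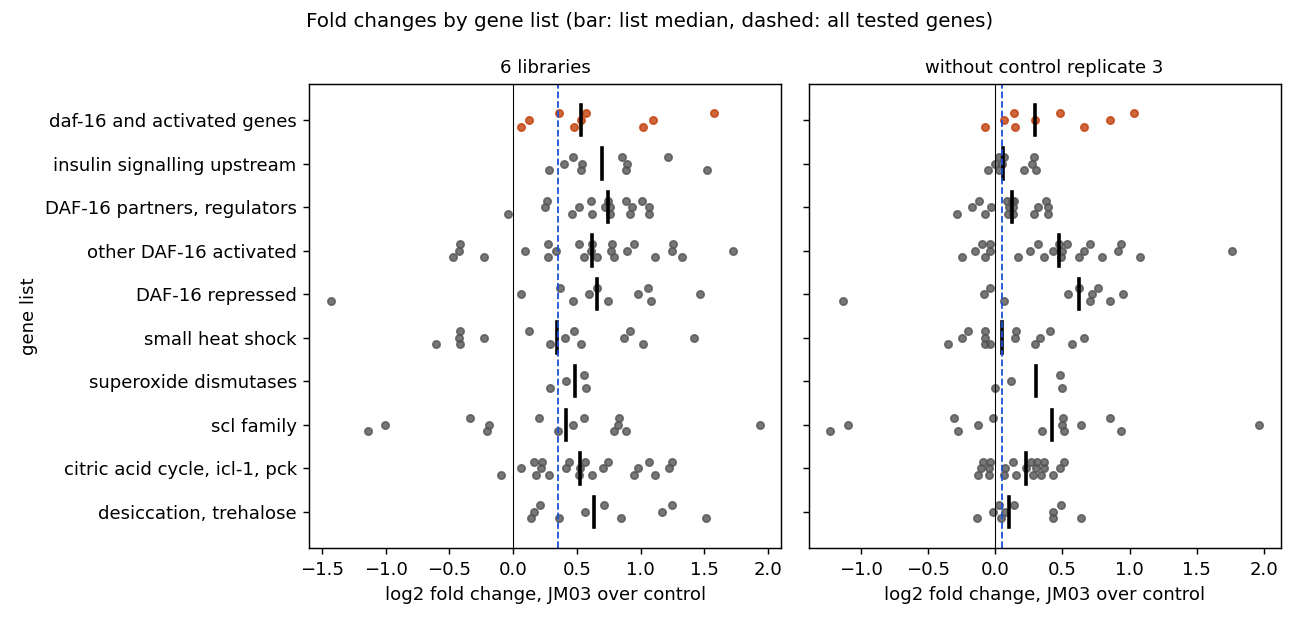
Log2 fold change of each tested gene (points) by gene list, with the 6 libraries at the left and without control replicate 3 at the right. Black bars are list medians and the dashed line is the median of all tested genes. The insulin signalling list has a median of 0.70 at the left and 0.06 at the right, while the DAF-16 activated and repressed lists stay at 0.48 and 0.62 at the right.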

How the data were processed

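The authors deposited 1 table that holds a TPM value for each gene in each library. That these are TPM was taken from the column sums of 997816 to 998884. The submitters' processing notes name fastp, HISAT, RSEM and the build WBcel235, while tool versions, annotation release and strand setting are not stated. Groups follow the treatment label. Coordinates and transcript lengths come from the Ensembl release 115 annotation of WBcel235.

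The test was limma 3.58.1 (R 4.3.3) on log2(TPM + 1), with a robust, mean-dependent prior and no pairing. It covered 12912 genes that reached 1 TPM in 3 or more libraries, and calls are those with a Benjamini-Hochberg adjusted p under 0.05 over all of them. The limma step was tested on simulated data, with noise drawn independently for each gene and library. Such noise lacks the deviation that many genes shared in control replicate 3, so the simulation does not cover it. The alternatives changed the normalization (quantile, or protein-coding genes rescaled), the filter (none, or 5 TPM), the pseudocount (0.1 or 5), the prior (not robust), the library weights (array quality weights), the pairing (a block by replicate number) and the libraries (1 left out in turn). Alternatives planned for read counts could not be applied to TPM. Plots were made in matplotlib 3.10.9 (Python 3.11.15).

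The 10 genes and the lists were chosen with earlier results of these data known. The text names these 10, the 2 genes of smallest p in each list (no list held a called gene), and the 3 genes closest to *daf-16*; 1 gene that this rule names is not reported here. Names beyond this are said to be so or stand beside a result they touch.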

Additional observations from a re-analysis of the deposited data

How the results depend on the processing

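None of the 9 tested genes was called under any alternative except array quality weights, which called 2 of them among 2202 genes in all (17 with equal weights) and put the group's median log2 fold change 0.43 above that of all tested genes, against 0.19. With no filter on low values it was 0.37 above, but the 2 medians then cover other sets of genes. That setting tested 20614 genes in all, and *scl-1* was included. The replicate number as a block called 0 of all genes and 0 of the 9. Deviations of same-numbered libraries from their group means were weakly correlated (-0.020, 0.079 and -0.146). Control replicate 3 weighs heavily in the control deviations, so these values cannot decide whether same-numbered libraries were handled together. The labels do not say either. Leaving out 1 library gave 5 to 17 calls over all genes, 0 of the 9, and a relative median of 0.085 to 0.39. The sign turned for *daf-16* without control replicate 3 (-0.075) and with array quality weights (-0.079), and for *icl-1* with quantile normalization (-0.10), without JM03 replicate 1 (-0.03) and without control replicate 2 (-0.060); the cause was not tested. Leaving out 1 library gave -0.075 to 0.87 for *daf-16* and -0.060 to 0.17 for *icl-1*. The log2 fold change ran from 1.03 to 2.09 for *dod-6*, from 0.85 to 1.47 for *dod-3* and from 0.64 to 1.23 for *hsp-12.3* over the alternatives. The number of genes with every JM03 library above every control was 4 with quantile normalization or rescaled protein-coding genes, against 5, and 5 to 7 when 1 library was left out (7 without JM03 replicate 2, 6 without control replicate 1). Depth is unknown, which limits *sod-3*, *hsp-12.6* and *scl-1* most.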

Other observations

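Near-identical copies of inducible small heat shock protein genes were divided differently in control replicate 3. *hsp-16.1* was listed at 0 TPM in the 3 JM03 libraries and in control replicates 1 and 2, and at 172.76 TPM in control replicate 3. *hsp-16.11* was at 117.50, 132.11 and 153.04 TPM in JM03, against 170.35, 138.20 and 32.56 TPM in control. The sum of both was 117.5, 132.1 and 153.0 TPM in JM03, against 170.4, 138.2 and 205.3 TPM in control. These genes were chosen after their values were seen.

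Within the *scl* family, *scl-17* and *scl-23*, also chosen after their values were seen, ran against *scl-20*. *scl-17* was at 0.75, 1.5 and 0.68 TPM in JM03, against 2.79, 4.49 and 2.75 TPM in control. *scl-23* was at 1.92, 3.26 and 1.27 TPM in JM03, against 4.34, 6.96 and 4.40 TPM in control. The groups did not overlap for either gene, and neither was called (limma adjusted p = 0.306 and 0.330).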
